A study of Mus musculus with 24 samples.

Results

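The Lin28, Hmga and Igf2bp genes are 7 genes that are best known from fetal tissue: Lin28a, Lin28b, Hmga1, Hmga2, Igf2bp1, Igf2bp2 and Igf2bp3. They were taken as the gene probes whose gene name on the array is one of these 7 symbols, which gave 7 of the 37074 gene names and 18 of the 56605 gene probes. Each gene was described through its probe of highest mean log2 signal over the 24 arrays, and its other probes served as a check. A probe was tested if 1 or more groups had it marked well above background in each of their 3 arrays, which held for 36409 probes, for the brightest probe of all 7 genes and for 13 of the 18 probes. RNA was taken from ventral roots, which hold efferent nerve fibres (EN), and from dorsal roots, which hold afferent ones (AN), dissected at spinal levels L4 to L6 from C57BL/6 mice on the day of birth (P0) and 1, 3 or 5 weeks later (1W, 3W, 5W). The labels name no treatment or genetic change for any group. Each of the 8 groups had 3 arrays, which carry replicate numbers 1 to 3. According to the study's methods, several animals of both sexes contributed to each age and the experiment was repeated independently, but no source ties single animals to single arrays, so the p-values measure the spread between these arrays.

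The 7 genes come from families that are linked to 1 regulatory circuit. The Lin28 proteins bind precursors of the let-7 microRNAs and block their maturation, and mature let-7 represses a set of growth genes that includes Lin28b, Hmga2 and the Igf2bp genes. The Hmga proteins are AT-hook proteins that bend DNA and loosen chromatin, and the Igf2bp proteins bind mRNAs and control their stability, transport and translation. The circuit is high in many embryonic tissues and is known to be shut off as tissues mature, and in Schwann cells Lin28b and let-7 are known to act on the timing of myelination.

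The let-7 sequences are shown because their shared seed, bases 2 to 8, defines the targets of the circuit. Mature sequences came from RefSeq (GRCm38.p6), the seed is in capitals, and let-7 itself was not measured on these arrays. Of 11 let-7 family members in that table, 10 shared the seed GAGGUAG, and let-7j carried GAGGUAU. These are 4 of the 10 and let-7j, at chr13:48538239-48538260 (minus strand), chr15:85707325-85707346 (plus), chr13:48536078-48536099 (minus), chrX:151913229-151913250 (plus) and chr3:140028281-140028304 (plus).
let-7a-5p: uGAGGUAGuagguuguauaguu
let-7b-5p: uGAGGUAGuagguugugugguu
let-7d-5p: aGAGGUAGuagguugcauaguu
miR-98-5p: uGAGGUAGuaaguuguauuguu
let-7j: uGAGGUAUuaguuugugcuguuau

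The complement of the seed, CTACCTC, was searched for in the sense sequence of every gene probe. It stood in 1 of the 18 probes of the 7 genes and in 0.353% of all 56605 gene probes (200 probes). The 1 probe was the brightest probe of Hmga2, and the stretch around the match lies on the minus strand at chr10:119798739-119798765 of mm9, the build of the array's header, with the match in capitals.
Hmga2: aaaacacactaCTACCTCttaagtccc
The match says that these letters lie within the probed part of the Hmga2 transcript; whether let-7 binds there was not measured.

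The brightest probe of each gene, 60 bases long, lies at these places of mm9. Lin28a was read at chr4:133559245-133559304, Lin28b at chr10:45096468-45096527, Hmga2 at chr10:119798739-119798798 and Igf2bp1 at chr11:95824102-95824161. Igf2bp2 was read at chr16:22059260-22059319 and Igf2bp3 at chr6:49037149-49037208, and these 6 lie on the minus strand. Hmga1 was read at chr17:27700543-27700602 on the plus strand. An annotation of mm9 was not used here, so the exon behind each probe is not given.

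The 250 bases before the transcription start (RefSeq, GRCm38.p6) are shown for Igf2bp3, Hmga2 and Lin28b, the 3 genes whose brightest probes had the largest mean falls from P0 to 5W over EN and AN. All 3 lie on the minus strand, at chr6:49214955-49215204, chr10:120476470-120476719 and chr10:45470202-45470451. Capitals mark the E-box CACGTG and the GC box GGGCGG, searched on both strands, and no stretch holds both motifs.
Igf2bp3: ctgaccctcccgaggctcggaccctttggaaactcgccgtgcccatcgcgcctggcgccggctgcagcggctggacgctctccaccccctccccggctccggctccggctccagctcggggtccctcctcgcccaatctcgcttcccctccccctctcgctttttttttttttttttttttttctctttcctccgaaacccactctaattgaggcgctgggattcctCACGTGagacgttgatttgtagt
Hmga2: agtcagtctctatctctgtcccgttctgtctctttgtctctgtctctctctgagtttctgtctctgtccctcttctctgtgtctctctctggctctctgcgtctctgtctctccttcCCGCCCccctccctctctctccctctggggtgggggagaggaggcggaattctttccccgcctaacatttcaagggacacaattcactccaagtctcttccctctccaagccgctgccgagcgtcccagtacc
Lin28b: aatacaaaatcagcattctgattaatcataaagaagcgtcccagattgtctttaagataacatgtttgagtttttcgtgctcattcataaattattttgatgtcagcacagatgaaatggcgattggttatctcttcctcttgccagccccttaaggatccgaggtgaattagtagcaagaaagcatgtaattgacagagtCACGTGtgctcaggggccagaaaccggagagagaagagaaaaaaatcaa
Igf2bp3 and Lin28b each held 1 E-box, which 6.02% of the 32851 promoters in the table hold, and Hmga2 held 1 GC box, which 32.7% hold. Among the other promoters of these genes in the table, Igf2bp2 held 2 GC boxes, Hmga1 3 in the window of 1 of its starts and 4 in that of the other, and Lin28a neither motif. Igf2bp1 was not found in this table. The E-box is the core site of Myc and related factors, and a match in a window says nothing of binding. The promoters also differed in base composition: 39.2% of the bases were G or C in Lin28b, 56.4% in Hmga2 and 60.4% in Igf2bp3, beside a median of 52.4% over all promoters.

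Of the 7 genes, 6 were called lower after 5 weeks in both roots, and the Lin28a probe was the exception. A probe was called when its Benjamini-Hochberg adjusted p from limma, over all 36409 tested probes, was below 0.05 and its fold change was above 2. At 5W, 6 of 7 genes were called lower than at P0 in EN, where 14.5% of all tested probes were called lower, and 6 of 7 in AN, where 12.7% were; Lin28a was not called in either. None of the 7 was called higher, while 15.4% of all tested probes were called higher in EN and 15.2% in AN. The median log2 difference of the 7 genes was -3.22 in EN and -3.04 in AN, beside 0.04 and 0.03 over all tested probes; with Lin28b at the bound that its background allows in EN, the EN median was -2.82. The EN median of -3.22 is the value of Igf2bp2, which leans on a low reading on EN 5W replicate 3. The Igf2bp2 difference was -2.31 without that array and -2.25 with the second Igf2bp2 probe. The tissue was bulk, so fewer expressing cells and less RNA per cell cannot be told apart.

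The age of the first call varied between genes. At 1W, 4 of 7 genes were called lower than at P0 in EN (Lin28b, Hmga2, Igf2bp1 and Igf2bp3; 5.67% of all tested probes) and 3 of 7 in AN (Hmga2, Igf2bp1 and Igf2bp3; 3.62%). At 3W, the counts against P0 were 6 of 7 in EN (14.4% of all) and 7 of 7 in AN (12.8% of all). With slide as a term the AN count was 4, without Lin28a, Lin28b and Igf2bp2, and Igf2bp2 lost its call in EN too. From 1W to 3W, 4 of 7 fell in EN (Lin28b, Hmga1, Hmga2 and Igf2bp3; 6.03% of all) and 5 of 7 in AN (Lin28a, Hmga1, Hmga2, Igf2bp2 and Igf2bp3; 6.37% of all), and the AN count was 3 without AN 3W replicate 1. From 3W to 5W limma called 0 of 7 lower in EN (0.417% of all) and 0 of 7 in AN (0.632% of all). An unadjusted limma p below 0.05 was reached by 3 genes in EN: Igf2bp2 (-1.65) and Igf2bp3 (-0.71), lower, and Lin28a (0.68), higher. In AN it was reached by 1 gene, Lin28a, which was higher at 5W (0.76). Within slide 4, which held all 3W arrays and 1 array per root at 5W, the Lin28a difference was -0.11 in EN and 0.17 in AN. The Igf2bp2 value of -1.65 in EN leans on the low reading on EN 5W replicate 3, and the second Igf2bp2 probe gave -0.88 for that step. The comparisons of a root share arrays with one another. The Lin28a step from 1W to 3W in AN (-1.32, adjusted p = 0.0013) was -0.21 with slide as a term (adjusted p = 0.44) and -0.76, inside the fold limit, with normexp background correction. In EN the Lin28b step from 1W to 3W was at least 1.60-fold (adjusted p = 0.00229) and lost its call with normexp background correction (log2 difference -0.69) or slide as a term (-1.92, adjusted p = 0.137; range over alternatives 2.42e-05 to 0.137). The Hmga1 step was -1.13 in EN and -1.02 in AN, just past the fold limit, and was inside it with slide as a term (-0.94 and -0.83), and in AN also without AN 3W replicate 1 (-0.85) or 2 (-0.84).

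**Figure D1:**
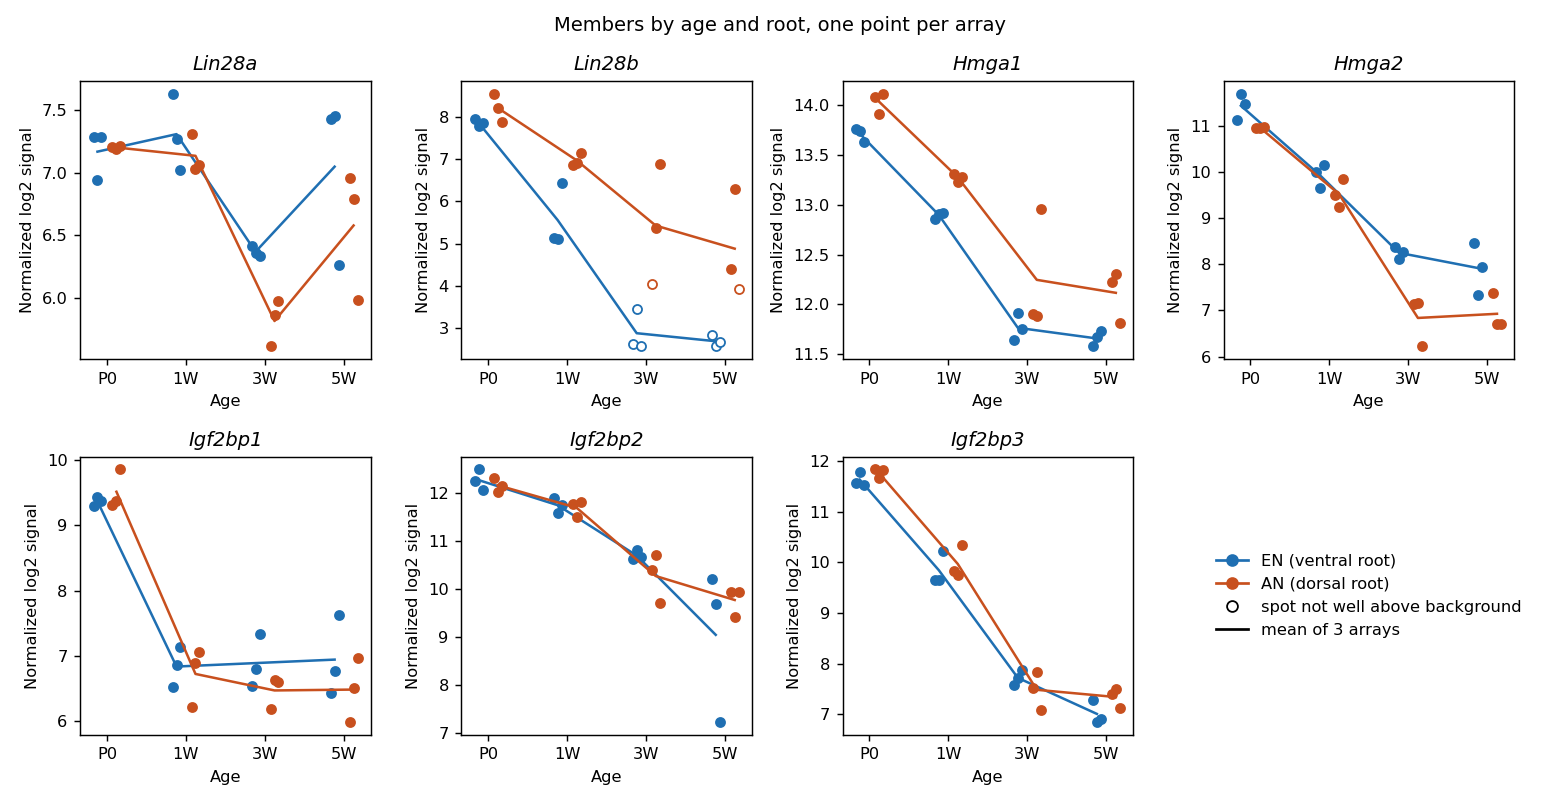
Normalized log2 signal (y axis) of the brightest probe of each gene at the 4 ages (x axis), with 1 point per array, EN in blue, AN in orange, lines through the means of 3 arrays, and open points for spots not well above background. In AN the 5W points of every gene lie below its P0 points, and in EN this holds for all genes but Lin28a. Lin28a dips at 3W, and the EN points of Lin28b are open at 3W and 5W.

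**Figure D2:**
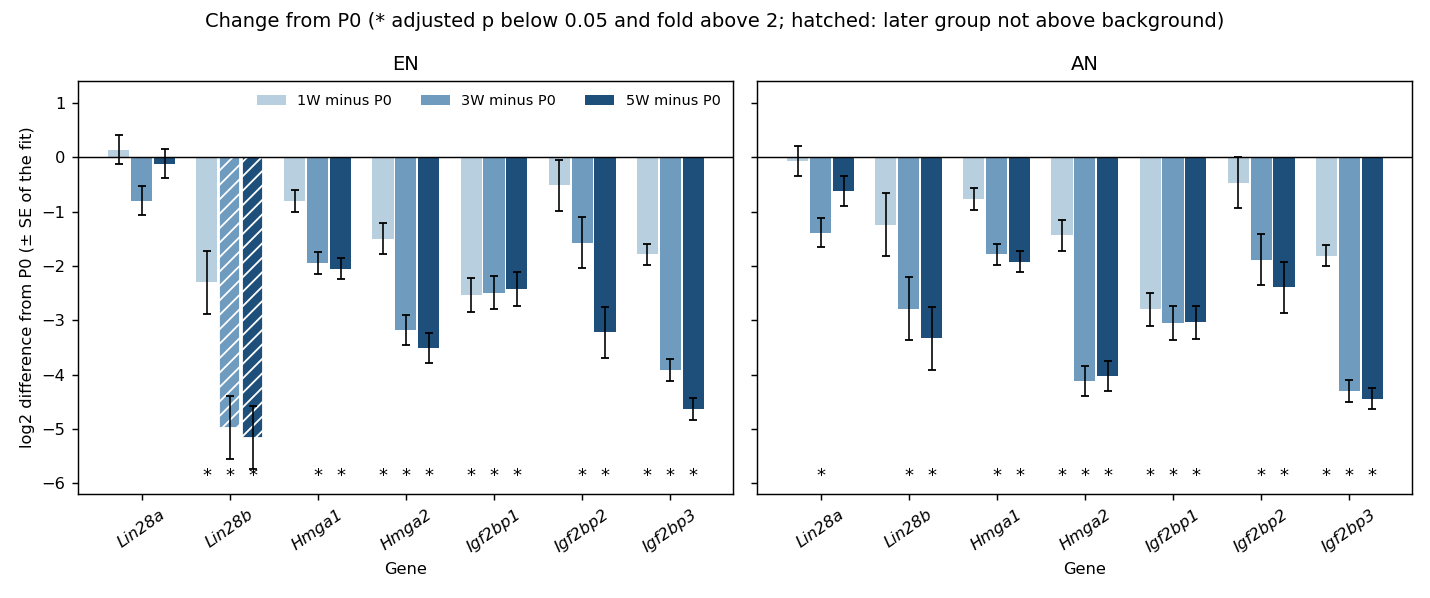
log2 difference from P0 (y axis; bars are the fit's estimates, error bars its standard errors) of each gene (x axis) at 1W, 3W and 5W, in EN on the left and AN on the right; stars mark called differences and hatching marks groups with no array above background. In this fit, which has no slide term, Igf2bp1 is near its 3W and 5W differences by 1W (-2.54 in EN and -2.80 in AN). Igf2bp2 differs from P0 by -0.52 and -0.47 at 1W.

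On the data as a whole, the arrays had a median signal of 45.4 to 191 over a median local background of 23 to 46, and 3 arrays a group limit the precision. All 8 Schwann cell markers (Sox10 among them) were above background on every array. Slides were not balanced over the ages: all 3W arrays and both arrays of 5W replicate 3 were hybridized on slide 4, and no P0 or 1W array was. The 1W arrays were spread over slides 1 to 3, and the P0 arrays lay on slides 1 and 3 only. AN 3W replicate 3 stood apart, with the lowest array weight of the 24 (0.216) and a summed linear signal of 6 sensory neuron markers of 167 kilo-units (normalized signal on the linear scale, where 1 kilo-unit is 1000 signal units), beside 6.2 and 4.48 kilo-units on the other AN 3W arrays.

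Lin28b, an inhibitor of let-7 maturation, fell below background in EN by 3W and was still above it on some AN arrays at 5W. Its values in EN were 7.94, 7.79 and 7.85 at P0 and 5.14, 5.11 and 6.43 at 1W, all log2 signals well above background. At 3W they were 2.62, 3.45 and 2.58 and at 5W 2.84, 2.57 and 2.67, and none of these 6 spots was well above background. The P0 arrays therefore lay at least 7.90-fold above 3W (limma adjusted p = 1.19e-06) and at least 7.04-fold above 5W (adjusted p = 5.83e-07), bounds set against the lowest signal that still counted as above background on each array. The step to 1W was a fall by 2.30 on the log2 scale (SE 0.58, adjusted p = 0.00644).

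In AN, Lin28b read 8.55, 8.21 and 7.89 at P0 and 6.86, 6.92 and 7.14 at 1W. It read 4.04, 5.37 and 6.88 at 3W, where 2 of 3 spots were above background, and 4.41, 6.30 and 3.94 at 5W, again with 2 of 3. In the order of means, AN P0 and EN P0 overlapped at the top, AN 1W stood apart from its neighbours, EN 1W, AN 3W and AN 5W overlapped, and EN 3W and EN 5W overlapped at the bottom. The 2 late AN groups were the widest of the 8, with SDs of 1.42 and 1.25. Against P0, the log2 difference was -2.79 at 3W (SE 0.58, limma adjusted p = 0.00058) and -3.33 at 5W (adjusted p = 9.47e-05), and the 1W difference of -1.24 did not pass the test (adjusted p = 0.14). With slide as a term in the fit, the 3W difference was -1.82 (adjusted p = 0.115; range over alternatives 5.57e-06 to 0.115).

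Lin28b read higher in AN than in EN at each age. AN lay above EN by 0.36 at P0 (SE 0.58, limma adjusted p = 1) and by 1.42 at 1W (adjusted p = 0.249), where the groups did not overlap. The AN and EN arrays of the same age and number deviated together, and with that pairing as a random block the 1W difference was called (adjusted p = 0.0499). The pairs at 1W also shared a slide. At 3W, where EN was below background, AN was at least 1.47-fold higher (adjusted p = 0.0134), and every AN array exceeded every EN array. At 5W the means were 4.88 in AN and 2.69 in EN (adjusted p = 0.0274); no fold can be given there, because the mean of AN did not exceed the background limit of the EN arrays. Both late calls passed the fold limit only through EN values below background, and they depended on single arrays and on the setting. The adjusted p ran from 0.00077 to 0.107 over the alternatives at 3W, with 0.00224 to 0.267 at 5W. The adjusted p was 0.0743 at 3W without AN 3W replicate 3 and 0.164 at 5W without AN 5W replicate 2. Leaving out EN 3W replicate 1 or 3, or any 1 of the EN 5W arrays, also ended the call, at adjusted p = 0.0598 and 0.0623 for 3W and 0.056 to 0.0741 for 5W.

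The sensory neuron markers were called lower at 5W than at P0 for 6 of 6 genes in EN and 5 of 6 in AN, but from P0 to 1W they differed by a median of 0.30 in AN, with 0 of 6 called, while they fell in EN (6 of 6 called lower, median -4.30). The 6 sensory neuron markers (among them Avil, Isl1, Prph, Tubb3 and Scn10a) summed to 27.0 to 42.2 kilo-units in EN at P0 and to 1.57 to 4.26 kilo-units at 1W. In AN they summed to 27.9 to 85.1 kilo-units at P0, 53.1 to 68.1 kilo-units at 1W, 4.48 to 167 kilo-units at 3W, and the 5W arrays gave 2.03 to 16.3 kilo-units. In EN at 3W and 5W the sum was 1.88 to 2.68 kilo-units and Isl1 was above background on no array. AN 3W replicate 3, the highest of its group for these markers, was also the highest for Lin28b (6.88); at 5W the highest Lin28b value (6.30) came from replicate 2, which held 6.4 kilo-units of these markers, and not from replicate 1 with 16.3 kilo-units. Over the 24 arrays, Lin28b correlated with the mean log2 value of these markers at r = 0.85, the highest r of the 7 genes with that list, and with that of 8 proliferation markers also at r = 0.85, as arrays that share age. The part of neuronal RNA in the Lin28b result was not tested.

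Lin28a, the paralogue that recruits an enzyme to tail let-7 precursors, was not called lower at 5W in either root. Its EN means were 7.17 ± 0.20 at P0, 7.31 ± 0.31 at 1W, 6.37 ± 0.04 at 3W and, by 5W, 7.05 ± 0.68 (SD, n = 3), and its AN means were 7.20 ± 0.01, 7.13 ± 0.16, 5.81 ± 0.18 and 6.58 ± 0.52. From the highest group, EN 1W, down to EN 3W, each group overlapped with the next, and only AN 3W stood below all others. In AN at 3W it was lower than at P0 by 1.39 log2 units (SE 0.27, limma adjusted p = 0.00031), and at 5W the difference was -0.62 in AN (adjusted p = 0.0619) and -0.12 in EN (adjusted p = 0.73). The values divided by slide: the 8 arrays of slide 4 lay between 5.61 and 6.41, and the 16 arrays of slides 1 to 3 between 6.79 and 7.63. With slide as a term, the AN difference at 3W was -0.29 (adjusted p = 0.244; range over alternatives 6.71e-06 to 0.244), with normexp background correction it was -0.80, inside the fold limit, and with slide as a term the EN difference at 5W changed sign, to 0.28 (adjusted p = 0.103). All 3W arrays lie on slide 4, so the slide term for 3W rests on the 5W replicate 3 arrays, and for age 3W alone age and slide cannot be told apart.

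A second Lin28a probe was not well above background on any of the 24 arrays, whereas the brightest was so on all 24, so the values given for Lin28a rest on 1 probe that no other probe backs, and whether that probe measures Lin28a could not be settled. The genes whose pattern was most like that of the brightest Lin28a probe over the 24 arrays included Gm38728 (r = 0.960) and Rbp3 (r = 0.955), and neither changed by more than 0.73 log2 units between the P0 and 5W means of a root. For Lin28b, of its 3 other probes 2 were above background on no array and 1 on 3 arrays. The 3 patterns most like that of Lin28b were those of Pcdh17 (r = 0.974), a protocadherin, Bex1 (r = 0.969) and Crmp1 (r = 0.968), a neuronal semaphorin-signalling protein.

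Hmga2, an AT-hook chromatin protein and a classic let-7 target, fell in both roots. In EN it read 11.13, 11.69 and 11.47 at P0, 9.64 to 10.14 at 1W, 8.37, 8.11 and 8.26 at 3W and 8.46, 7.34 and 7.95 at 5W. The AN values were 10.95, 10.95 and 10.97 at P0, 9.49, 9.23 and 9.84 at 1W, 7.14, 7.15 and 6.22 at 3W and 7.38, 6.70 and 6.70 at 5W. Each age up to 3W lay below the one before it in both roots with no overlap, and 5W overlapped with 3W. The order of means was EN P0, AN P0, EN 1W, AN 1W, EN 3W, EN 5W, AN 5W and AN 3W, where EN P0 and AN P0 did not overlap and neighbours from EN 3W on did. Between P0 and 5W Hmga2 fell 11.4-fold in EN (log2 difference -3.51, SE 0.28, limma adjusted p = 7.14e-09) and 16.4-fold in AN (-4.03, SE 0.28, adjusted p = 1.12e-09).

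A difference between the roots was called for Hmga2 at 3W. AN was lower than EN by 0.47 at P0 and by 0.41 at 1W, neither past the test (limma adjusted p = 0.887 and 0.616), though AN was lower in 3 of 3 pairs of the same number at both ages. At 3W AN was lower 2.66-fold (log2 difference -1.41, SE 0.28, adjusted p = 0.00539), with no overlap and with AN lower in 3 of 3 pairs of the same number. Without AN 3W replicate 3 the difference at 3W was -1.10, closer to the fold limit, and kept its call. At 5W AN was lower 1.99-fold (adjusted p = 0.0385) in 3 of 3 pairs, just inside the fold limit, and a second Hmga2 probe, above background on all 24 arrays, was called at both ages (-1.71 at 3W, adjusted p = 0.00459, and -1.43 at 5W, adjusted p = 0.0127). In a fit of the 2 groups alone the 3W difference lost its call (adjusted p = 0.0537; range over alternatives 4.59e-05 to 0.0537). The test of the change in the AN-EN difference itself gave -0.94 from P0 to 3W (SE 0.40, adjusted p = 0.447), or adjusted p = 0.042 with the pairing as a random block, with a fold under the limit in both.

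Hmga1, the broadly expressed AT-hook paralogue, also fell in both roots. Its arrays spanned 13.63 to 13.76 at P0, 12.86 to 12.92 at 1W, 11.64 to 11.91 at 3W, and the 5W arrays gave 11.58 to 11.73 in EN. In AN they spanned 13.91 to 14.11, 13.23 to 13.31, 11.88 to 12.96 and 11.81 to 12.31, and the 12.96 came from AN 3W replicate 3. The arrays ordered the ages without overlap up to 3W, and 3W and 5W overlapped in both roots. The order of means was AN P0, EN P0, AN 1W, EN 1W, AN 3W, AN 5W, EN 3W and EN 5W, with no overlap between neighbours down to EN 1W and overlap from there on. By 5W Hmga1 had fallen 4.14-fold in EN (log2 difference -2.05, SE 0.20, limma adjusted p = 1.21e-07) and 3.78-fold in AN (-1.92, adjusted p = 2.83e-07); at 1W the falls of 0.81 and 0.77 passed the adjusted p (0.00618 and 0.0108) but not the fold limit. The AN mean lay 0.33 to 0.48 above the EN mean at the 4 ages, with adjusted p from 0.187 to 0.922, and AN was higher in 3 of 3 pairs of the same number at P0, 1W and 5W and in 2 of 3 at 3W.

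The other 2 Hmga1 probes, which lie nearer the start of the gene, were dim and did not follow the brightest one closely. One of them differed from P0 by -1.49 in EN (adjusted p = 0.00251) and -0.99 in AN (adjusted p = 0.0335) at 5W, and the other by -0.41 and -0.07 (adjusted p = 0.459 and 0.916). The probes were above background on 19 and 17 of 24 arrays. Hmga1 correlated with the mean of the 8 proliferation markers at r = 0.92 over the 24 arrays, and its closest patterns were Slc7a6 (r = 0.975), Usp19 (r = 0.974) and Tram1l1 (r = 0.973). For Hmga2 the closest were Mfap2 (r = 0.978), Klhl13 (r = 0.977) and Fbn2 (r = 0.977), of which Mfap2 and Fbn2 are microfibril proteins of the extracellular matrix.

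Igf2bp3, an mRNA-binding protein of embryonic tissue, had the largest fall from P0 to 5W among the members that were above background at both. It read 11.58, 11.79 and 11.54 in EN at P0, 9.66, 9.66 and 10.22 at 1W, 7.57, 7.71 and 7.87 at 3W and 7.27, 6.84 and 6.90 at 5W. The AN arrays read 11.84, 11.66 and 11.83, then 9.82, 9.75 and 10.34, then 7.52, 7.83 and 7.09, then 7.39, 7.50 and 7.12. The roots overlapped at each of the 4 ages, with differences of -0.23 to 0.33 and adjusted p of at least 0.374. In the order of means the P0 groups stood above the 1W groups and these above all 3W and 5W groups, whose neighbours overlapped from EN 3W down to EN 5W. From P0 to 5W it fell 24.8-fold in EN (log2 difference -4.63, SE 0.20, limma adjusted p = 3.73e-12) and 21.7-fold in AN (-4.44, SE 0.20, adjusted p = 6.25e-12). Of all tested probes, 0.475% fell further in EN and 0.288% in AN.

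The 2 other Igf2bp3 probes, which lie upstream in the gene, also fell but reached background. At 1W one of them was 3.71-fold lower than at P0 in EN and 3.54-fold in AN, near the brightest probe's 3.46-fold and 3.50-fold, and the other had fallen further, by at least 10.8-fold in EN, where it was above background on none of the 3 arrays, and was 12.2-fold lower in AN, where 2 of 3 arrays were above background. Neither was above background at 5W on any array, and P0 lay at least 4.91-fold and 9.60-fold above 5W in EN and at least 7.61-fold and 13.8-fold in AN. The patterns closest to Igf2bp3 were Mrps2 (r = 0.989), a mitochondrial ribosomal protein, Rhno1 (r = 0.988), a factor of the replication checkpoint, and Gm10653 (r = 0.987). Its correlation with the 8 proliferation markers was r = 0.95, the highest of the 7 genes with that list.

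Igf2bp1, which binds the Actb and Myc mRNAs, fell between P0 and 1W in both roots, with no called change after that when slide was not in the fit. It read 9.30, 9.43 and 9.38 in EN at P0 and 6.52, 6.85 and 7.13 at 1W, and 9.31, 9.38 and 9.86 in AN at P0 and 6.22, 6.89 and 7.05 at 1W. From 1W on, all 18 arrays lay between 5.98 and 7.63 and every group overlapped with its neighbours in the order of means. The step to 1W was 5.80-fold in EN (log2 difference -2.54, SE 0.31, limma adjusted p = 1.17e-05) and 6.97-fold in AN (-2.80, SE 0.31, adjusted p = 3.68e-06). Between 1W and 3W the differences were 0.05 in EN (adjusted p = 0.922) and -0.25 in AN (adjusted p = 0.57), and between 3W and 5W 0.05 and 0.01. With slide as a term, the step from 1W to 3W was -1.24 in AN (adjusted p = 0.00867), which is past both limits, and -0.94 in EN (adjusted p = 0.0423). The patterns closest to that of Igf2bp1 were Tfap2b (r = 0.954), a transcription factor of neural crest lineages, 4930596I21Rik (r = 0.945) and Nup50 (r = 0.943). Only 1 probe measures Igf2bp1.

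Igf2bp2, the member that stays expressed in many adult tissues, was called lower from 3W on in both roots. In EN it read 12.24, 12.49 and 12.07 at P0, 11.89, 11.59 and 11.75 at 1W, 10.62, 10.80 and 10.66 at 3W and 10.21, 9.69 and 7.22 at 5W. In AN the same ages read 12.31, 12.02 and 12.15, then 11.77, 11.50 and 11.80, then a mean of 10.27 ± 0.51 (SD, n = 3), then 9.94, 9.42 and 9.94. The P0 groups stood above the 1W groups and these above the later ones without overlap, and from EN 3W through AN 3W and AN 5W to EN 5W neighbours overlapped. The EN 5W replicate 3 value of 7.22 stood far below the other 2 of its group, while the second Igf2bp2 probe read 9.30 on that array and 9.22 and 8.69 on the others. From P0 to 5W the log2 difference of Igf2bp2 was -3.22 in EN (SE 0.47, limma adjusted p = 1.46e-05), or -2.31 without that array, and -2.39 in AN (SE 0.47, adjusted p = 0.000347). The second probe, above background on all 24 arrays, gave -2.25 in EN (SE 0.19, adjusted p = 1.63e-08) and -2.41 in AN (SE 0.19, adjusted p = 6.03e-09).

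At 1W the difference of the brightest Igf2bp2 probe from P0 was -0.52 in EN and -0.47 in AN (limma adjusted p = 0.447 and 0.538). The second probe gave -0.64 and -0.55 there (SE 0.19, adjusted p = 0.0175 and 0.044), and -0.88 and -0.83 from 3W to 5W (adjusted p = 0.0198 and 0.0187), past the adjusted p but inside the fold limit. The fall to 3W was called in both roots (-1.57, adjusted p = 0.00938, and -1.89, adjusted p = 0.00268), and with slide as a term it was -0.34 and -0.66 (adjusted p = 0.702 and 0.444, the highest over the alternatives, whose lowest were 6.87e-05 and 0.000267). The step from 1W to 3W in AN (-1.43, adjusted p = 0.0299) was -0.16 with slide as a term (adjusted p = 0.886) and had an adjusted p of 0.0764 with the pairing as a random block (range over alternatives 0.00192 to 0.886), and it lost its call without AN 1W replicate 1 or 3 or AN 3W replicate 1 or 3 (adjusted p = 0.0582 to 0.103). The slide term for 3W rests on the 5W replicate 3 arrays, among them the EN reading of 7.22 on the brightest probe. In the fit without slide, the second probe was called at 3W against P0, by -1.37 in EN (limma adjusted p = 9.32e-06) and -1.58 in AN (adjusted p = 1.92e-06). It was also called for the AN step from 1W to 3W (-1.02, adjusted p = 0.000624). Its values with slide as a term are not given here. The patterns closest to the brightest probe included Sec61b (r = 0.962) and Mageh1 (r = 0.958).

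**Figure D3:**
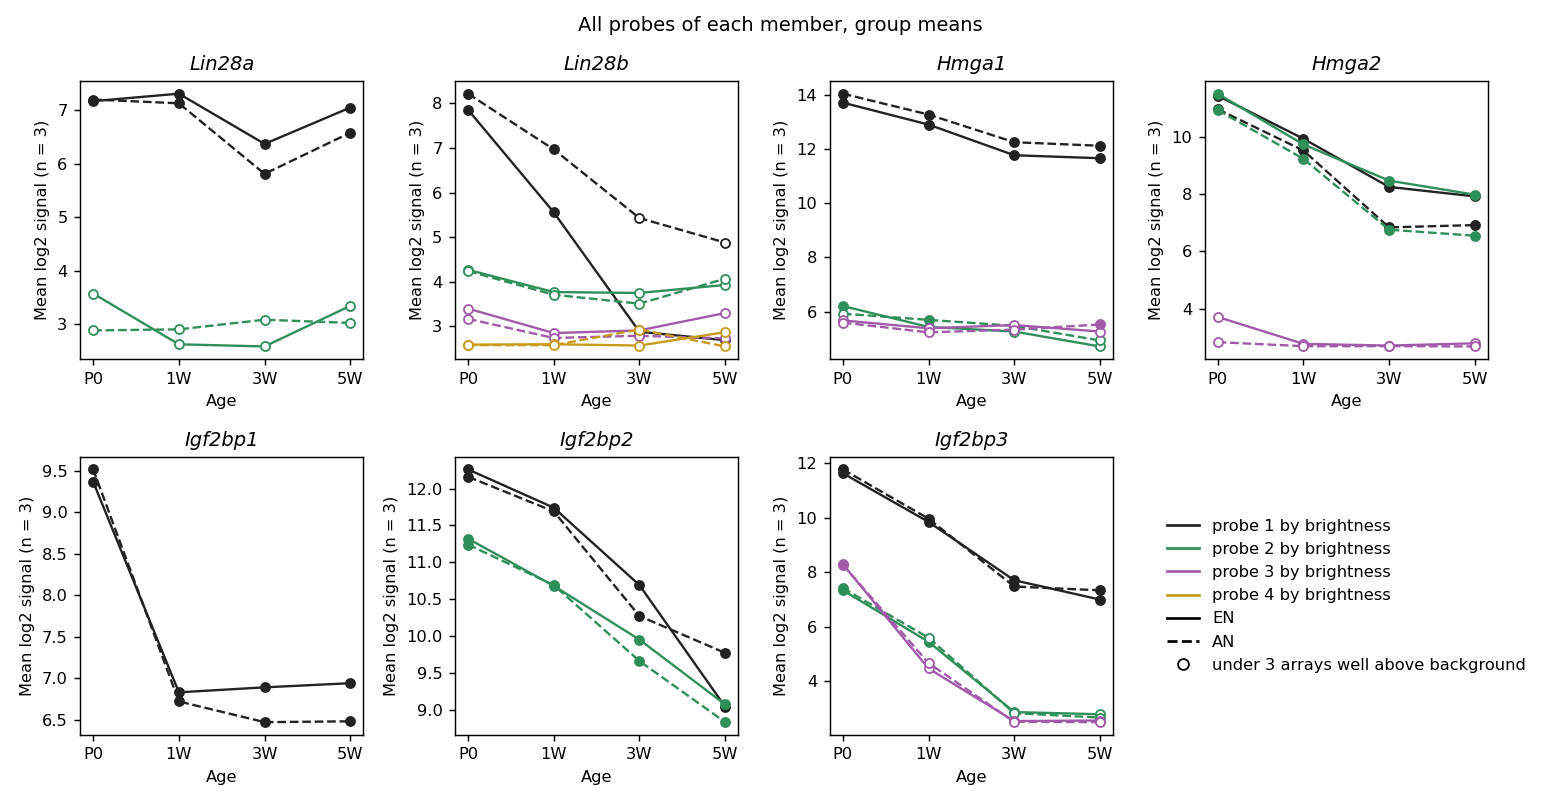
Mean log2 signal of 3 arrays (y axis) by age (x axis) for each of the 18 probes, coloured by their rank in brightness, EN with solid and AN with dashed lines, and open points where fewer than 3 arrays were well above background. The 2 bright Hmga2 probes run together, the dim Igf2bp3 probes reach background by 3W, and the second Lin28a probe is open throughout.

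Across the 7 genes, few differences between the roots were called at any age. The test called 0 of 7 at P0 (0.327% of all tested probes in either direction) and 0 of 7 at 1W (2.79% of all), with 0 and 1 genes at an unadjusted p below 0.05. It called 2 of 7 at 3W (3.11% of all), Hmga2 lower and Lin28b higher in AN, and 1 of 7 at 5W (3.31% of all), Lin28b. Both Lin28b calls passed the fold limit only through EN values below background. Its bound was 1.47-fold at 3W, under the limit, and no bound could be given at 5W. No AN-EN difference was called as changed from P0, with 0 of 7 at 1W (0.0632% of all), 0 of 7 at 3W (0.525% of all) and 0 of 7 at 5W (0.931% of all); by limma 0, 2 and 1 genes had an unadjusted p below 0.05. The 2 at 3W were Lin28b (adjusted p = 0.345), for which no size can be given because EN was below background at 3W, and Hmga2.

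**Figure D4:**
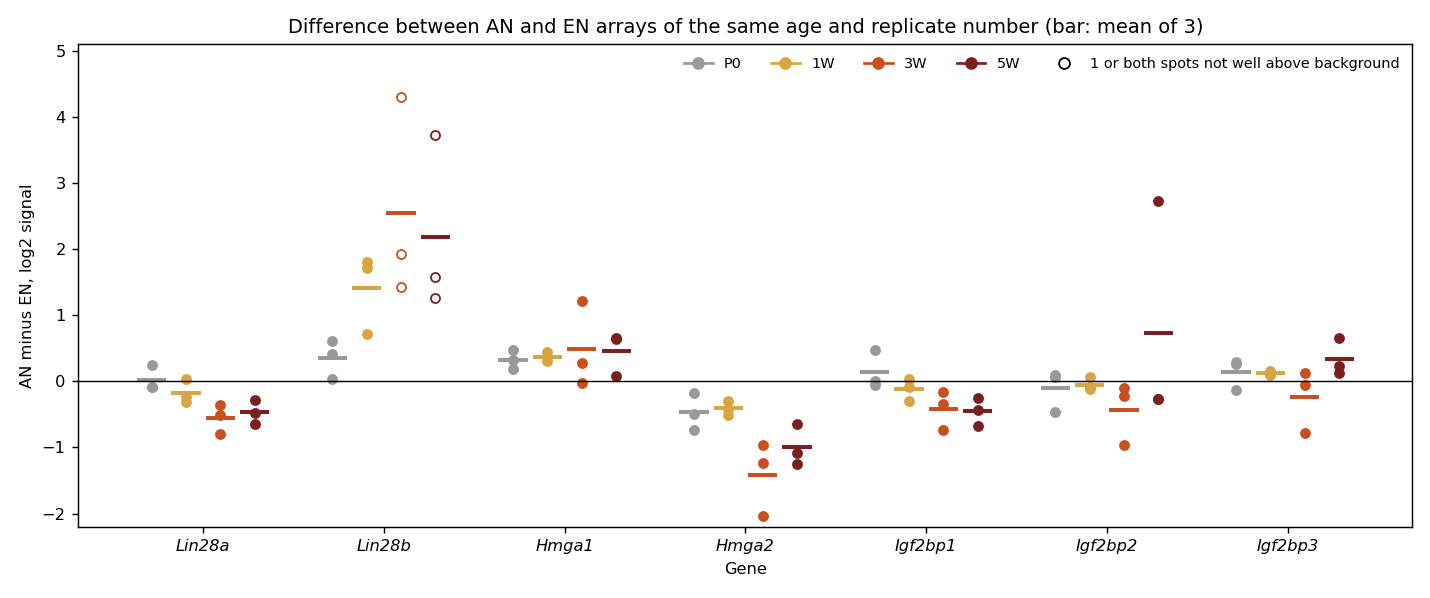
AN minus EN difference in log2 signal (y axis) for each gene (x axis) and age (colours), with 1 point per pair of arrays of the same age and number, bars at the mean of 3 pairs, and open points where either spot was not well above background. Hmga2 lies below 0 in 3 of 3 pairs at each age, and Lin28b lies above 0 at each age, with open points at 3W and 5W.

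Marker genes of other kinds moved with age beside these genes. All 8 proliferation markers (Mki67, Top2a, Cdk1, Ccnb1, Birc5, Aurkb, Bub1 and Kif11) were called lower at 5W than at P0 in EN and in AN, with medians of -4.07 and -4.47. Their summed signal was 38.2 to 45.1 kilo-units in EN at P0 and 2.54 to 3.49 kilo-units at 5W, and 57.4 to 73.9 and 3.02 to 3.85 kilo-units in AN; Kif11 was above background on no EN 5W array. The 8 Schwann cell markers summed to 616 to 645 kilo-units in EN and 432 to 514 kilo-units in AN at P0, and none of their sums was lower at 5W. Of these 8, 2 were called higher and 1 lower at 5W in EN, and 5 higher and 0 lower in AN. The 5 skeletal muscle markers (Acta1, Ckm, Myh4, Tnnt3 and Mylpf) had medians of -3.69 in EN and -3.53 in AN at 1W against P0, with 4 of 5 called lower in each. Their sums went from 55.6 to 134 kilo-units in EN at P0 to 5.11 to 10.4 at 1W, 14.5 to 31.9 at 3W and 8.22 to 19.9 at 5W, and in AN from 28.8 to 57.5 at P0 to 1.98 to 6.76 at 1W, 11.1 to 104 at 3W and 3.60 to 83.1 at 5W. Of the 5 macrophage markers, 4 were called higher at 5W in EN and 2 in AN (medians 1.19 and 0.99). The part of these cell types in the falls of the 7 genes was not tested.

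The genes that act on let-7 itself, from a list of 16 that covers the processing enzymes, the Argonautes and the decay factors, are set beside all tested probes, of which 14.5% were called lower and 15.4% higher in EN, and 12.7% and 15.2% in AN. At 5W 3 of 16 were called lower and 1 higher than at P0 in EN, and 1 lower and 1 higher in AN, and the list medians were -0.04 and -0.09. Hnrnpa1, an RNA-binding protein that opposes let-7 processing, changed by -1.60 in EN (SE 0.16, limma adjusted p = 1.2e-07) and by -1.61 in AN (adjusted p = 1.13e-07). Dis3l2, the exonuclease that degrades let-7 precursors tailed under Lin28, fell from 13.03 ± 0.18 to 11.93 ± 0.25 in EN (SD, n = 3; adjusted p = 0.000165), and its AN difference of -0.93 (adjusted p = 0.000814) stayed inside the fold limit. Tarbp2, a partner of Dicer, fell from 13.04 ± 0.12 to 11.94 ± 0.12 in EN (adjusted p = 5.66e-08), with a difference of -0.79 in AN, and Ago3 rose by 1.17 and 1.12 (adjusted p = 0.0396 and 0.0496). Dicer1 itself differed by -0.07 and -0.19, and Drosha by 0.07 and 0.11.

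Other genes reported as let-7 targets included more falls than rises. Of 20 such genes, 8 were called lower at 5W than at P0 in EN and 9 in AN, and 0 were called higher in either root, beside the same 14.5% and 12.7% lower and 15.4% and 15.2% higher over all tested probes; the list medians were -0.67 and -0.63, beside 0.04 and 0.03. Ccnd1, a G1 cyclin, changed by -2.24 in EN (SE 0.16, limma adjusted p = 2.54e-09) and by -2.22 in AN (adjusted p = 2.57e-09). Plagl1, an imprinted zinc finger gene, was lower by log2 differences of -1.89 in EN and -2.50 in AN, and Ccnd2 by -1.42 and -2.14. The list also holds growth genes that did not pass the test, such as Igf1r (-0.27 and -0.36), Nras (-0.15 and -0.16) and Trim71 (-0.18 and -0.19).

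Among 14 RNAs bound by Igf2bp proteins or genes of their RNP partners, 6 were called lower at 5W in EN and 7 in AN, 0 higher, with medians of -0.83 and -0.92, beside 14.5% and 12.7% of all tested probes called lower. H19, an imprinted noncoding RNA bound by Igf2bp1, fell from 17.63 ± 0.24 to 11.39 ± 0.27 in EN (SD, n = 3; log2 difference -6.23, limma adjusted p = 3.64e-11) and from 17.49 ± 0.25 to 11.21 ± 0.50 in AN (-6.28, adjusted p = 2.94e-11). Igf2, whose mRNA gave the family its name, changed by -3.33 in EN (adjusted p = 2.98e-07) and by -3.99 in AN (adjusted p = 2.85e-08). Gap43 and Elavl2, which neurons also express, changed by -4.77 and -4.68 in EN and by -3.16 and -2.70 in AN. Actb, the classic cargo of Igf2bp1, differed by -0.22 and -0.28 (adjusted p = 0.141 and 0.0709).

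Some of the other high mobility group genes fell too. Of 11 genes, 4 were called lower at 5W in each root and 0 higher, with medians of -0.91 in EN and -0.97 in AN, beside 14.5% and 12.7% of all tested probes called lower. Hmgb2, a chromatin protein of dividing cells, changed by -2.86 in EN (SE 0.24, limma adjusted p = 1.16e-08) and by -3.09 in AN (adjusted p = 3.78e-09). Hmgb3 was lower by -1.78 and -2.50, Hmgn2 by -1.74 and -2.03 and Tox by -1.31 and -1.33. Hmg20b (-0.22 and -0.28) did not pass the test.

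**Figure D5:**
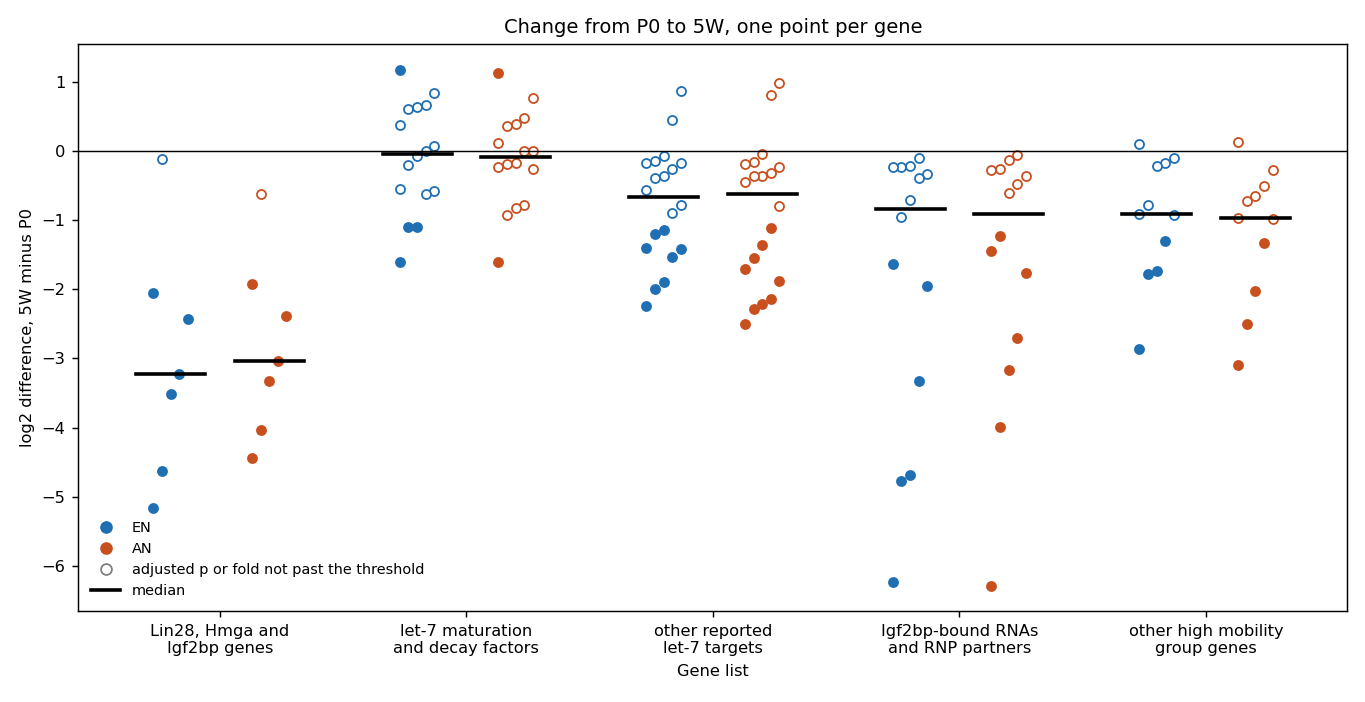
log2 difference between 5W and P0 (y axis) for each tested gene of the Lin28, Hmga and Igf2bp genes and of 4 related lists (x axis), EN in blue and AN in orange, filled where adjusted p was below 0.05 and the fold above 2, with black bars at the list medians. The 7 genes have medians of -3.22 and -3.04, the let-7 maturation list has -0.04 and -0.09, and H19 is the lowest point at -6.23 and -6.28. The EN median of the 7 genes is the Igf2bp2 value, which is -2.31 without EN 5W replicate 3.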

How the data were processed

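The authors hybridized Cyanine-3 labelled RNA to 24 Agilent 8 × 60K mouse arrays and read them with Agilent Feature Extraction 10.7.1.1, per the labels. They deposited the fluorescence intensity of every spot, with local background and a mark for spots well above background, and a table of log2 values made, by their methods, in GeneSpring with quantile normalization. In that table all 24 columns have a median of 6.3109, and each correlates best with its own array's log2 intensity (r of at least 0.9955), so scale and direction are known; its values were used as deposited, because the probe rule and the study's methods name it. No per-sample column lacked a sample, and no array was left out.

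The 36409 gene probes marked well above background in each of the 3 arrays of 1 or more groups were fitted with limma 3.58.1 in R 4.3.3 (8 group means, 24 arrays, eBayes, 18.35 total degrees of freedom). Every adjusted p of the text is from limma with Benjamini-Hochberg adjustment over these probes and is two-sided. A filter of this kind keeps probes that are high in 1 group, so a probe such as that of Lin28b passes through the groups where it is high. Where no array of the lower group was above background, a fold is a lower bound: on each dimmer array the probe's value was raised to that array's lowest signal above background (3.71 to 5.87 in log2 units) where it lay under it, and the mean of these was set against the mean of the brighter group. Quantile normalization assumes similar distributions on all arrays, and the median shift of all tested probes was at most 0.06 in size.

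The named genes are the 7 members, the 3 genes closest to each by Pearson r over 24 arrays (1 probe a gene, 17728 other genes, a description only), and, in each gene list, the 4 genes with the largest mean change from P0 to 5W over both roots; other list genes were named after their values were seen. Some genes that these rules name are not reported here. The members and lists were chosen with earlier results of these data known. The AN and EN arrays of the same age and number deviated together from their group means (12 correlations of 0.107 to 0.646), so the numbers were taken to pair them. The main fit left this pairing out. At 1W and 5W arrays shared a slide only with the same number, so pairing and slide cannot be told apart there. At 3W all arrays lay on slide 4, with r of 0.107 to 0.214. At P0 replicates 2 and 3 lay on slide 3, with r of 0.435 and 0.432 for equal and -0.04 and -0.217 for unequal numbers. Alternatives were scanner intensities with other scalings and normexp (offset 50), other filters, slide and replicate blocks, array weights, fits of the compared groups alone, other call rules and probes, and leaving out each array. The fit was also run on simulated data with independent noise on each array. Those data had no pairing, slide difference or background limit, so the run cannot show how the fit handles these. Figures were made with Python 3.11.15, pandas 2.3.3 and matplotlib 3.10.9.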

Additional observations from a re-analysis of the deposited data

How the results depend on the processing

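At 5W against P0 the count was 6 of 7 in both roots, and 5 in both with only probes above background on all arrays, a filter that removes Lin28b, and 5 in AN with the next brightest probes. Signal over background and 3 arrays a group limit what a dim probe such as Lin28b can show. With the slide as a term, 2 members fell from 1W to 3W in EN and 3 in AN (Hmga2, Igf2bp3 and, gained, Igf2bp1), 4 lay below P0 at 3W in AN, and 1 fell from 3W to 5W in EN. That last count was also 1 with array weights and with an unadjusted p. AN against EN at 1W gave 1 call with the random replicate block, array weights or an unadjusted p. At 3W it gave 1 with normexp and with that filter, and 0 with only the groups compared. At 5W it gave 0 with 75th percentile scaling, normexp, the filter, array weights or only the groups compared, and 2 with no fold limit or with the next brightest probes. An unadjusted p gave 1 changed AN-EN difference at 3W and 1 at 5W. Leaving out each array gave counts of 4 to 5 (EN, 1W to 3W), 3 to 6 (AN, 1W to 3W), 0 to 1 (EN, 3W to 5W), 1 to 2 (AN against EN at 3W) and 0 to 2 (at 5W). With the replicate number as a fixed term (replicate block), all 17 counts were as reported, 6 of 7 at 5W among them. That term gives a number the same shift at every age, so it does not describe the pairing within an age. Among the called changes with age, the changes from P0 to 5W and the called root differences, signs turned for Lin28a in EN at 5W, at 0.28 with the slide term, 0.06 with array weights and -0.32 to 0.27 over the arrays left out, and for 1 dim Hmga1 probe from 1W to 3W, at 0.12 in EN and 0.10 in AN. Uncalled changes also turned, such as the Igf2bp1 step from 1W to 3W in EN with the slide term. The uncalled Lin28a step from 3W to 5W in EN (0.68) was -0.11 within slide 4. For Igf2bp2 the uncalled AN minus EN difference at 5W (0.73) was -0.24 with the second probe. Where no reason is given, the cause was not tested.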
